A study of Mus musculus with 8 samples.

Results

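Lysosome and cathepsin genes were followed in mouse mammary luminal cells, the inner epithelial layer, which secretes milk. The set holds 39 genes chosen by symbol, among them proteases, glycosidases, lipid hydrolases, membrane proteins, proton pump subunits and transcription factors of the lysosome. Of these, 36 had a named probe set among the 19505 genes measured, while Ctsd, Glb1 and Atp6v0c were not analysed here. The cells came from mice on day 15 of pregnancy and were sorted by flow cytometry from fresh, enzymatically digested tissue. Of the 8 arrays, 4 are labelled a3a6KO, for the integrin alpha 3 and alpha 6 chains that pair with beta chains as laminin receptors, and 4 are labelled control. The titles of the a3a6KO samples carry both DKO and Ctrl, and the groups follow the cell subtype label. The series design calls the arrays biological replicates, but the deleted exons, the Cre line that made the deletion, any pooling of animals and the exact control genotype are not stated in the labels. Values are log2 signals, and every difference is a3a6KO minus control, so that a positive value means higher in a3a6KO.

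The lysosome is the acidic compartment in which cells digest proteins, sugar chains and lipids delivered from outside, from autophagy or from the secretory pathway. A proton pump in its membrane, the V-ATPase, keeps the lumen acidic, which most of the cathepsins and glycosidases need for their activity. Heavily glycosylated membrane proteins such as Lamp1 and Lamp2 line the membrane, and transcription factors of the MiT/TFE family can raise many lysosomal genes together. In the mammary gland, lysosomes are best known from involution, when secretory cells are cleared after weaning.

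The arrays were checked for the label and for cell content before the lysosomal genes were compared. Itga6 was 5.95, 3.65, 8.21 and 7.85 in a3a6KO replicates 1 to 4, against 8.83, 8.73, 9.14 and 8.80 in control replicates 1 to 4. Its level in a3a6KO 3 and 4 was thus below every control but far above a3a6KO 2, and where its probes lie relative to the deletion is not known here. Itga3 was 5.11, 4.34, 5.55 and 5.60 in a3a6KO, against 6.72, 6.30, 5.37 and 7.27 in control. Its groups overlapped, with control 3 below a3a6KO 3 and 4. Background was taken as the 95th percentile of the negative control probe sets of the same array (6.38 to 6.90). Itga3 exceeded it on 1 control array and 0 a3a6KO arrays. All 10 measured luminal markers exceeded background on all 8 arrays. Of these, 7 were higher and 3 lower in a3a6KO, with a median difference of 0.10. The luminal keratin gene Krt8 was 10.46 ± 0.14 in a3a6KO and 10.37 ± 0.19 in control (SD, n = 4 each), while the mucin gene Muc1 differed by -0.74 with groups that did not overlap, and the alveolar regulator gene Elf5 by -0.30 (-0.16 without a3a6KO 1). Basal and myoepithelial markers were lower in a3a6KO in 13 of 15 genes with a median difference of -0.46, and 4 (26.7%, beside 5.13% of all genes) had an unadjusted limma p under 0.05. Among them were Krt14 (-1.60), Krt5 (-2.54) and Trp63 (-2.43), the last with groups that did not overlap and above background on 1 array. The mean of that list, each gene taken relative to its own mean over the arrays, ranged from -0.86 to 0.88 in a3a6KO and from -0.45 to 1.34 in control. Of 17 leukocyte and macrophage markers, 14 exceeded background on no array, and Csf1r and Lyz2 were among those 14, as was Mrc1, the only one of the 17 with an unadjusted p under 0.05 (0.70, with groups that did not overlap). Cd14 (-0.56) exceeded background on all 8 arrays, Lcp1 (-0.30) on 4, and Ptprc (-0.99) on control 3 alone, at 7.07. Of the 17 markers, 5 were higher and 12 lower in a3a6KO, with a median difference of -0.12. The mean of the leukocyte list ranged from -0.19 to 0.06 in a3a6KO and from -0.12 to 0.32 in control. Of 9 fibroblast markers, 5 were higher and 4 lower in a3a6KO, and 7 exceeded background on no array. Of these 9, 2 had an unadjusted limma p under 0.05 (22.2%, beside 5.13% of all genes). Both were higher in a3a6KO and below background throughout. In sorted bulk samples a lower share of cells of a type and less RNA per cell cannot be told apart.

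Across all 36 measured lysosomal genes, of which 12 exceeded background on no array, no common shift was seen between a3a6KO and control luminal cells. Among the 10 above background on every array, 3 were higher and 7 lower in a3a6KO. Of the 36 measured genes, 18 had a higher and 18 a lower mean in a3a6KO, and the median difference was 0, beside -0.0025 over all genes tested. The limma fit over all genes called 0 of the 36 at an adjusted p under 0.05, as it called 0 of 19505 genes (0%), and 2 of the 36 had an unadjusted p under 0.05, a share of 5.56% beside 5.13% of all genes. Both of these, Atp6v1a and Tpp1, were lower in a3a6KO. The adjusted p-values of the 36 genes in limma ran from 0.944 to 0.999. Itga6 and Itga3 differed by -2.46 and -1.265 and were not called either, each with an adjusted p of 0.944 in limma. A gene that was not called was thus not shown to be unchanged. A difference of at least 1.5-fold, counted on the log2 values, was found in 1 gene, Scarb2, that is in 2.78% of the set beside 7.79% of all genes. The median size of a difference was 0.20 in the set and 0.18 over all genes, and the median standard error was 0.25 in the set and 0.23 over all genes.

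How firmly a shift can be bounded differed between genes. Background was exceeded on all 8 arrays by 10 of the 36 genes (Ctsb, Ctsh, Ctsl, Lipa, Psap, Gm2a, Lamp1, Lamp2, Cd63 and Atp6v1a) and on no array by 12 (Ctsf, Ctss, Hexa, Gla, Naglu, Manba, Neu1, Asah1, Atp6v0a1, Atp6v0d1, Tfeb and Mitf). Over all genes the shares were 8.25% on every array and 76.4% on none. In 9 of the 10 genes above background throughout, the 95% interval of the difference lay within a 2-fold change in either direction, and the exception was Ctsb. Over the whole set this held for 24 of 36 genes (66.7%), beside 74.5% of all genes. Leaving out a single array moved the difference by more than 1.5 times, or turned it, in 34 of the 36 genes. The exceptions, Tpp1 and Atp6v1a, are the 2 genes of lowest p in the set. The share over all genes was not counted, and a small difference meets this rule easily. The 10 genes above background throughout had differences between -0.46 and 0.19, with 3 higher and 7 lower and a median of -0.09. For genes near background, differences are given on the log2 scale without a fold because their size is uncertain.

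**Figure D1:**
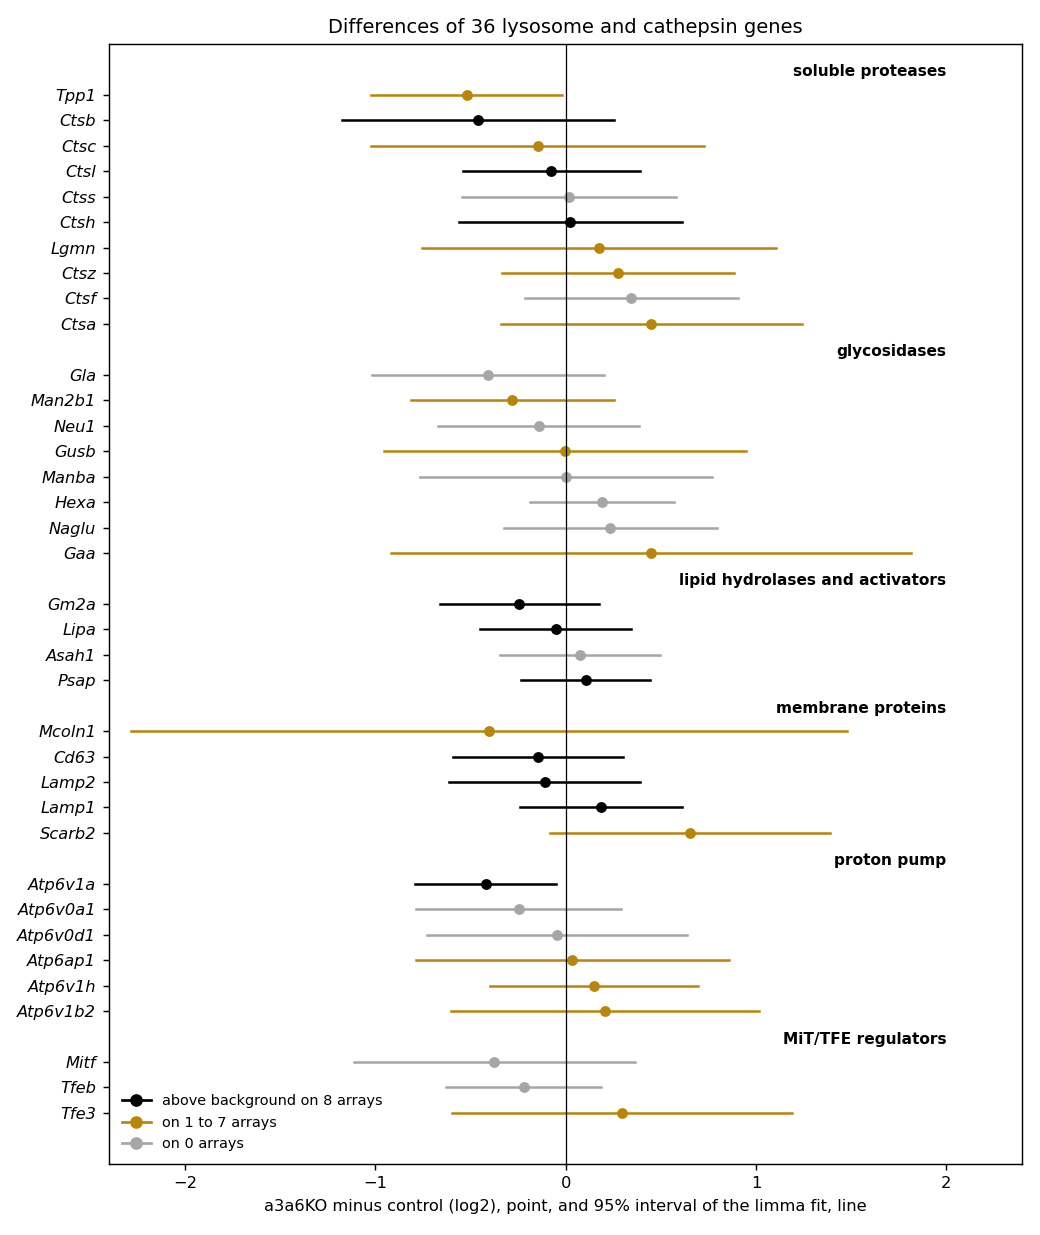
Difference of each of the 36 measured genes (horizontal axis, a3a6KO minus control, log2) with its 95% interval from limma, grouped by role and coloured by the number of arrays on which the gene exceeded background. Points lie on both sides of 0 in every role, between -0.52 (Tpp1) and 0.66 (Scarb2), and the interval excludes 0 in Tpp1 and Atp6v1a alone.

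The soluble proteases were mixed in direction, with 6 of 10 higher and 4 lower in a3a6KO, a median difference of 0.02 and 0 past the threshold. Tpp1, the tripeptidyl peptidase that trims peptides from their amino end, had the lowest p of the group. It was 6.60, 7.36, 6.71 and 6.64 in a3a6KO, against 7.04, 7.44, 7.26 and 7.65 in control. In a3a6KO 1, 3 and 4 it lay below every control value, and in a3a6KO 2 among the controls, so the groups overlapped. The difference was -0.52 (SE 0.223, 95% interval -1.02 to -0.019), with an unadjusted limma p of 0.0435, an adjusted p of 0.944 over all genes and an exact permutation p of 0.0857.

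The cysteine cathepsin gene Ctsb, one of the main lysosomal endopeptidases, was 7.56, 6.96, 8.34 and 7.66 in a3a6KO, against 8.04, 7.60, 8.67 and 8.06 in control. The groups overlapped, and the difference was -0.46 (SE 0.318, exact permutation p = 0.257), which became -0.24 without a3a6KO 2, -0.27 without control 3 and -0.70 without a3a6KO 3. Ctsl, another endopeptidase of the papain family, was 9.34, 9.54, 9.74 and 9.62 in a3a6KO, against 9.92, 9.15, 9.60 and 9.87 in control. Its a3a6KO values all fell inside the range of the controls. The difference was -0.07 (SE 0.206, 95% interval -0.54 to 0.39).

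The other proteases gave smaller differences than Tpp1 and Ctsb. Ctsh, an aminopeptidase, averaged 8.11 ± 0.50 in a3a6KO and 8.09 ± 0.23 in control (SD, n = 4 each), a difference of 0.03. Ctsa, the carboxypeptidase that also protects beta-galactosidase and neuraminidase, had a difference of 0.45 (SE 0.352), which was 0.25 without control 1, 0.18 without a3a6KO 3 and 0.71 without control 4. Ctsc, the dipeptidyl peptidase that activates granule proteases of immune cells, was at -0.15. Ctsz, a carboxypeptidase, was at 0.28, and at 0.07 without control 3. The asparaginyl endopeptidase gene Lgmn was at 0.18. Neither Ctsf (0.35) nor Ctss (0.02), the cathepsin best known from antigen-presenting cells, exceeded background on any array.

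Glycosidases, which strip sugars from glycoproteins and glycolipids, divided evenly, with 4 of 8 higher and 4 lower in a3a6KO, a median difference of 0 and 0 past the threshold. The lowest p of the group belonged to the alpha-galactosidase gene Gla, below background throughout. It was 4.81, 5.06, 5.56 and 4.54 in a3a6KO, against 5.96, 5.17, 5.37 and 5.10 in control. The a3a6KO 3 value lay among the controls, and the difference of -0.41 (SE 0.27, exact permutation p = 0.229) was -0.22 without control 1 and -0.26 without a3a6KO 4.

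Man2b1, a lysosomal alpha-mannosidase, was 6.56, 5.47, 6.05 and 6.09 in a3a6KO, against 6.29, 6.10, 6.33 and 6.57 in control. The values of a3a6KO 2, 3 and 4 lay under the lowest control, and a3a6KO 1 lay near the highest. The difference was -0.28 (SE 0.237), and -0.09 without a3a6KO 2. Gaa, the glucosidase that breaks down glycogen, was among the least reproducible genes of the set, with means of 7.0 ± 0.86 in a3a6KO and 6.55 ± 1.20 in control (SD, n = 4 each). The beta-glucuronidase gene Gusb differed by -0.0025 over all arrays and by 0.46 without control 4, where it stood at 6.56 beside 4.64 to 4.79 in the other controls. The remaining glycosidases Hexa (0.19), Naglu (0.24), Manba (0.0025) and Neu1 (-0.14) exceeded background on no array. The difference of Hexa was 0.30 without a3a6KO 4, and that of Naglu was 0.09 without a3a6KO 4 and 0.43 without a3a6KO 1.

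Lipid hydrolases and their activator proteins were the most even group. Psap, the precursor of the saposins that present sphingolipids to their enzymes, was 9.54, 9.29, 9.48 and 9.56 in a3a6KO, against 9.53, 9.35, 9.24 and 9.33 in control. The groups overlapped within a range of 0.32 over all arrays, and 97.4% of all genes had a larger spread within groups. Its difference was 0.10 (SE 0.151, 95% interval -0.24 to 0.45). Gm2a, the activator of ganglioside breakdown, was 8.56, 8.82, 8.56 and 8.53 in a3a6KO, against 8.61, 8.79, 9.27 and 8.77 in control. The values of a3a6KO 1, 3 and 4 lay just below the lowest control, and the difference was -0.24 (SE 0.185, exact permutation p = 0.171), or -0.11 without control 3. Lipa, the acid lipase, averaged 8.57 ± 0.17 in a3a6KO and 8.62 ± 0.23 in control (SD, n = 4 each). The acid ceramidase gene Asah1, below background throughout, differed by 0.08.

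Among the lysosomal membrane proteins, 2 of 5 were higher and 3 lower in a3a6KO, with a median difference of -0.11 and 0 past the threshold. Scarb2, which carries beta-glucocerebrosidase to the lysosome, was 6.21, 6.80, 6.49 and 7.47 in a3a6KO, against 6.42, 5.66, 5.65 and 6.62 in control. The a3a6KO 1 and 3 values lay within the control range, and the gene exceeded background on 2 a3a6KO arrays and 1 control array. The difference was 0.66 (SE 0.327, 95% interval -0.08 to 1.39), with an adjusted p of 0.944 in limma and an exact permutation p of 0.171, and it was 0.41 without a3a6KO 4.

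Lamp1 and Lamp2, the main glycoproteins of the lysosomal membrane, had similar means in both groups. Lamp1 was 8.68, 8.63, 8.99 and 8.56 in a3a6KO, against 8.14, 8.63, 8.57 and 8.77 in control. Lamp2 was 9.48, 8.86, 9.72 and 9.28 in a3a6KO, against 9.08, 9.49, 9.55 and 9.66 in control. For both genes the groups overlapped. The difference was 0.19 for Lamp1 (SE 0.189, 95% interval -0.24 to 0.61), which was 0.06 without control 1 and 0.10 without a3a6KO 3. For Lamp2 it was -0.11 (SE 0.223, 95% interval -0.61 to 0.39). Cd63, a tetraspanin of late endosomes and lysosomes, averaged 8.73 ± 0.21 in a3a6KO and 8.88 ± 0.30 in control (SD, n = 4 each), and its difference of -0.14 was -0.0042 without control 4.

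Mcoln1, the calcium channel of the lysosomal membrane, varied most within groups and is given in full for that reason, after its values had been seen. It was 5.58, 3.81, 7.56 and 7.58 in a3a6KO, against 6.35, 5.35, 6.75 and 7.69 in control. Both groups held high and low arrays, with a spread within groups that only 0.513% of all genes exceeded. The difference of -0.40 (SE 0.836) was 0.37 without a3a6KO 2, so its direction rested on that array.

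**Figure D2:**
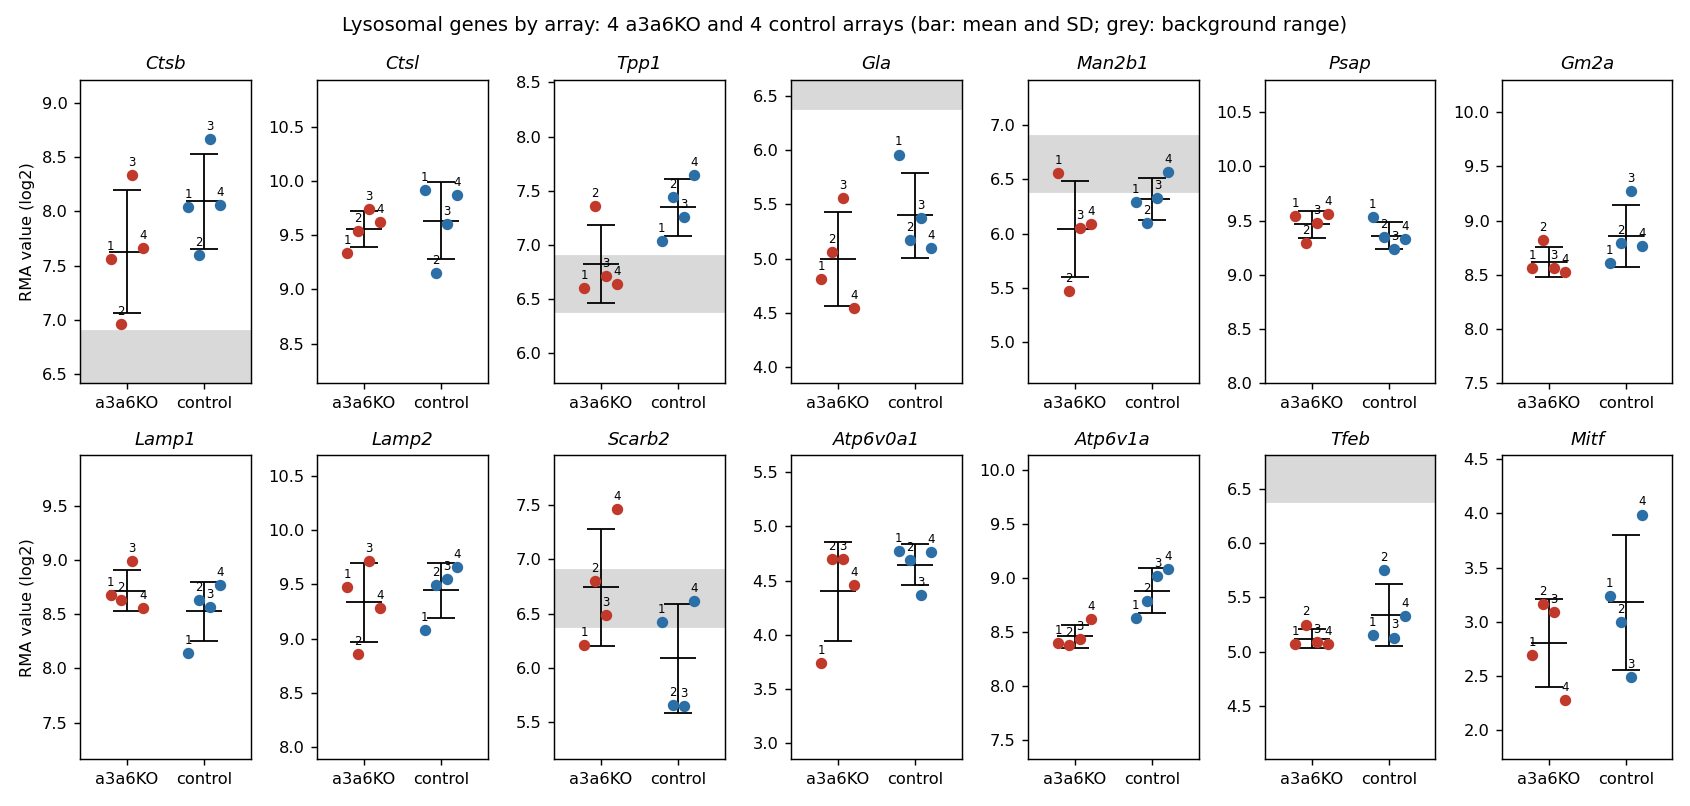
Log2 value (vertical axis) of 14 lysosomal genes on each a3a6KO array (left, red) and control array (right, blue), numbered by replicate, with the mean and SD. The vertical axis spans the same number of log2 units in each panel, and the grey band is the range of the background level (6.38 to 6.90). The groups are separate in Atp6v1a, where the highest a3a6KO value is 8.62 and the lowest control value 8.63, and overlap in the other panels.

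Of the proton pump genes, 3 of 6 were higher and 3 lower in a3a6KO, with a median difference of -0.005 and 0 past the threshold. Atp6v1a, the catalytic subunit that hydrolyses ATP in the cytosolic part of the pump, was the exception to the overlap seen elsewhere. It was 8.40, 8.38, 8.44 and 8.62 in a3a6KO, against 8.63, 8.79, 9.02 and 9.08 in control. Each a3a6KO value lay below each control value, but the nearest pair, a3a6KO 4 and control 1, stood at 8.62 and 8.63. Among the 36 genes this was the only one whose groups did not overlap, a share of 2.78% beside 2.94% of all genes in either direction and 1.56% with a3a6KO lower. The means were 8.46 ± 0.11 in a3a6KO and 8.88 ± 0.21 in control (SD, n = 4 each). The difference was -0.42 (SE 0.164, 95% interval -0.79 to -0.05), a 1.34-fold change, with an unadjusted limma p of 0.0300 and an adjusted p of 0.944 over all genes. The exact permutation test gave 0.0286, the smallest p that 4 against 4 arrays allow. When the arrays were centred on their medians, the groups of Atp6v1a overlapped.

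The other subunits gave no such separation. Atp6v0a1, a membrane subunit of the pump, was 3.74, 4.70, 4.70 and 4.46 in a3a6KO, against 4.77, 4.69, 4.37 and 4.76 in control. All of these values lay below background, and the difference of -0.25 (SE 0.239) was -0.03 without a3a6KO 1. Atp6v0d1 (-0.04), which links the membrane part to the stalk, was also below background on all arrays. Atp6v1b2 (0.21), the partner of the catalytic subunit, Atp6v1h (0.15), a regulatory subunit, and the accessory protein gene Atp6ap1 (0.03) exceeded it on 1 to 3 arrays. The difference of Atp6v1h was 0.02 without control 2 or a3a6KO 3 and 0.32 without control 1. Single arrays turned the direction of Atp6v0d1, Atp6v1b2 and Atp6ap1 when left out.

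The promoter window of Atp6v1a is shown because this gene had the lowest p of the set and carries the E-box TCACGTG described with the regulators, marked in capitals. The window of Tpp1, the other gene with an unadjusted p under 0.05, is shown beside it. It has no match to TCACGTG but 2 to the related TCATGTG, 1 on each strand. Both run from 250 bases before to 50 bases after a RefSeq transcript start (GRCm38.p6) and are written 5′ to 3′ on the minus strand. The window of Atp6v1a is chr16:44139210-44139509 and that of Tpp1 is chr7:105752186-105752485.
Atp6v1a: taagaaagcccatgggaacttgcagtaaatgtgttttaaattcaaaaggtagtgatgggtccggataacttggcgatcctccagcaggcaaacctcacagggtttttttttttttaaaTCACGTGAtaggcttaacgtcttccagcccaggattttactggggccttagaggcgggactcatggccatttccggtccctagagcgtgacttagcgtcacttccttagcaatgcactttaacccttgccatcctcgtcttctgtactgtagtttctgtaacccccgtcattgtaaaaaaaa
Tpp1: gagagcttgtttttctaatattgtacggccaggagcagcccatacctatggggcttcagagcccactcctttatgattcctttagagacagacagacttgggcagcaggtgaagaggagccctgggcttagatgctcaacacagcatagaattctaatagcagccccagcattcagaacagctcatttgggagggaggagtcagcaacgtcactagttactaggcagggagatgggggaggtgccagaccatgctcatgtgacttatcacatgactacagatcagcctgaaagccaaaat

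The regulators Tfeb, Tfe3 and Mitf encode the MiT/TFE factors, which bind E-boxes in lysosomal promoters, and 0 of the 3 passed the threshold. Tfeb, the best known activator of lysosomal genes, was 5.07, 5.25, 5.09 and 5.07 in a3a6KO, against 5.15, 5.75, 5.13 and 5.33 in control. In a3a6KO 1, 3 and 4 it lay below every control, and in a3a6KO 2 among them. All were below background, and the difference of -0.22 (SE 0.181, exact permutation p = 0.171) was -0.08 without control 2. Mitf was 2.69, 3.16, 3.09 and 2.28 in a3a6KO, against 3.24, 3.0, 2.49 and 3.99 in control, with overlapping groups far under background. Its difference of -0.37 was -0.10 without control 4. Tfe3 averaged 5.91 ± 0.71 in a3a6KO and 5.62 ± 0.60 in control (SD, n = 4 each), exceeded background on 1 array, and had a difference of 0.30 that was 0.02 without a3a6KO 4.

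Promoter windows of the table, from 250 bases before to 50 after a transcript start, were found for 34 of the 39 genes by symbol, in 44 windows, and were searched on both strands for the E-boxes that MiT/TFE factors bind. The heptamer TCACGTG was present in 11 of the 34 genes, or in 11 of 44 windows (25%), beside 3.77% of all 32851 windows of the same length. Its core CACGTG was present in 29.5% of the windows of the set and 7.15% of all windows, and the longer GTCACGTG, which contains the heptamer, in 20.5% and 2.25%. The palindrome TCACGTGA was in 13.6% and 0.974%, and the 10-base CLEAR consensus by which lysosomal promoters are known in 0% and 0.326%. The related TCATGTG was in 13.6% and 3.77%. These motifs overlap one another, and a match is a description of the letters in the window.

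The sites in 6 measured genes are shown because they cover proteases, glycosidases, membrane proteins and the pump, and because 1 window can hold the heptamer several times. Capitals mark TCACGTG on either strand and any match that overlaps it, and the flanks are 12 bases long. Positions count from the transcript start as 0. Mcoln1 has 2 matches between -72 and -39 (chr8:3500435-3500492, plus strand), and Lamp1 has 4 between -62 and -10 (chr8:13159087-13159163, plus strand). Ctsa has 2 between -13 and 11 (chr2:164833748-164833796, plus strand), and Gla has 2 between -228 and -188 (chrX:134601181-134601245, minus strand). Naglu has 1 at -74 to -68 (chr11:101070008-101070038, plus strand) and Atp6v0d1 has 1 at -4 to 3 (chr8:105566049-105566080, minus strand).
Mcoln1: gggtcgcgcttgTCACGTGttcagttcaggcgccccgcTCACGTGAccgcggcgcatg
Lamp1: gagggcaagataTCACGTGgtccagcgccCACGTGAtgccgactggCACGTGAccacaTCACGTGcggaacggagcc
Ctsa: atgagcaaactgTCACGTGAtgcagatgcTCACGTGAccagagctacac
Gla: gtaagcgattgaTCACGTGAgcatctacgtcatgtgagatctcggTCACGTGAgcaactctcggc
Naglu: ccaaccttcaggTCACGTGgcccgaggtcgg
Atp6v0d1: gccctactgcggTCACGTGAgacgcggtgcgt

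Genes with the heptamer did not share a direction. Of the 11, 9 were measured, and 5 of these were higher and 4 lower in a3a6KO, from -0.42 (Atp6v1a) to 0.45 (Ctsa and Gaa), with a median difference of 0.18. Of the 22 measured genes without it, 9 were higher and 13 lower, from -0.52 (Tpp1) to 0.66 (Scarb2), with a median of -0.06. Both ranges span 0, and no gene of either kind passed the threshold. Only 2 of the 9 exceeded background on all arrays, Lamp1 with 4 matches and a difference of 0.19, and Atp6v1a with 1 and -0.42.

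**Figure D3:**
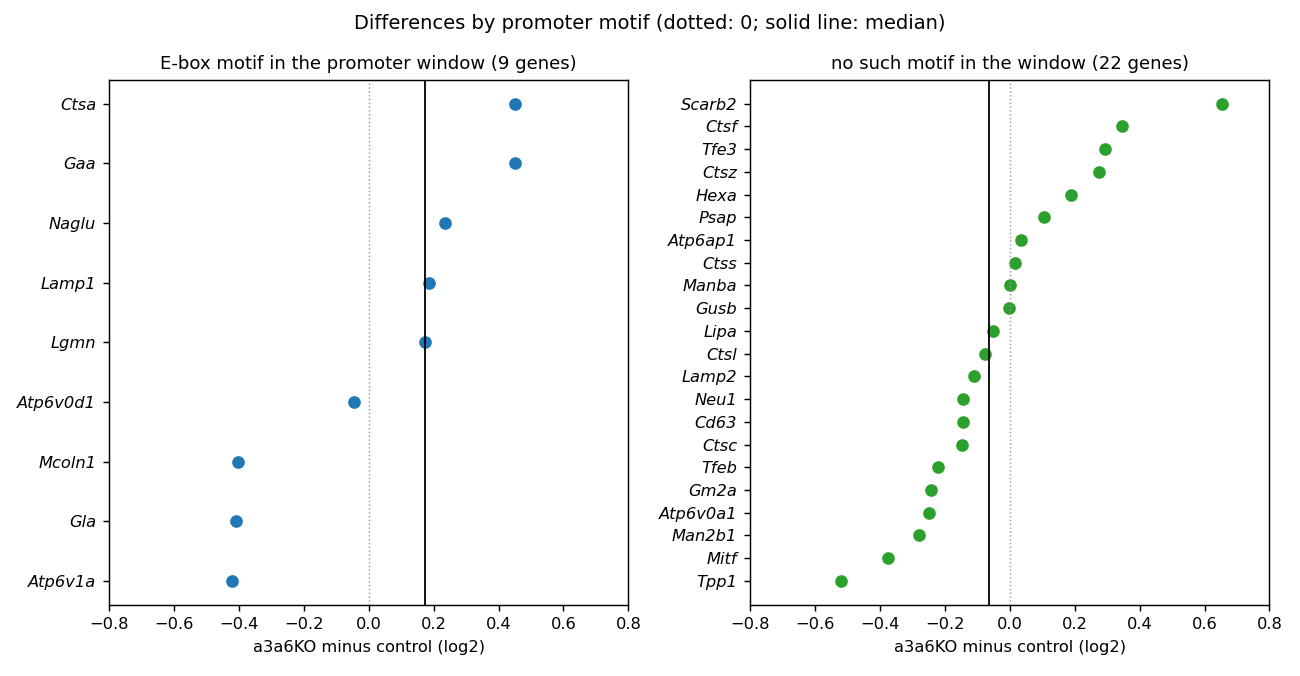
Difference between a3a6KO and control (horizontal axis, log2) of the 9 measured genes whose promoter window holds TCACGTG and the 22 whose window does not, with the median as a solid line (0.18 and -0.06). Points of both kinds lie on both sides of 0.

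A few genes were highest in the arrays with the highest levels of endothelial markers, at a share not far above that of all genes. Ctsa, Lamp1, Lamp2 and Cd63 each had their highest a3a6KO value in a3a6KO 3 and their highest control value in control 4, which holds for 4 of 36 genes (11.1%) beside 7.43% of all genes. In the same arrays the mean of the 9 endothelial markers was 1.20 in a3a6KO 3 and 1.45 in control 4, above a range of -0.94 to 0.01 over the other 6 arrays, and 3 of these markers exceeded background on no array. The mean of the basal list was 0.88 in a3a6KO 3 and 1.34 in control 4, and that of the fibroblast list 0.74 and 0.73. Ctsa stood at 8.0 in a3a6KO 3, against 7.52 in control 4, and between 6.13 and 7.08 elsewhere. The part of these cells in the levels was not tested. Without both arrays, 19 of the 36 genes were lower in a3a6KO, with a median difference of -0.04 and 0 past the threshold, and 3 had groups that did not overlap (Gla, Gusb and Atp6v1a), where 10.2% of all genes did not. Over the whole set the mean level relative to each gene's own mean was -0.16, -0.09, 0.13 and 0.09 in a3a6KO replicates 1 to 4, against -0.10, -0.15, 0.02 and 0.25 in control replicates 1 to 4, so the groups overlapped.

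**Figure D4:**
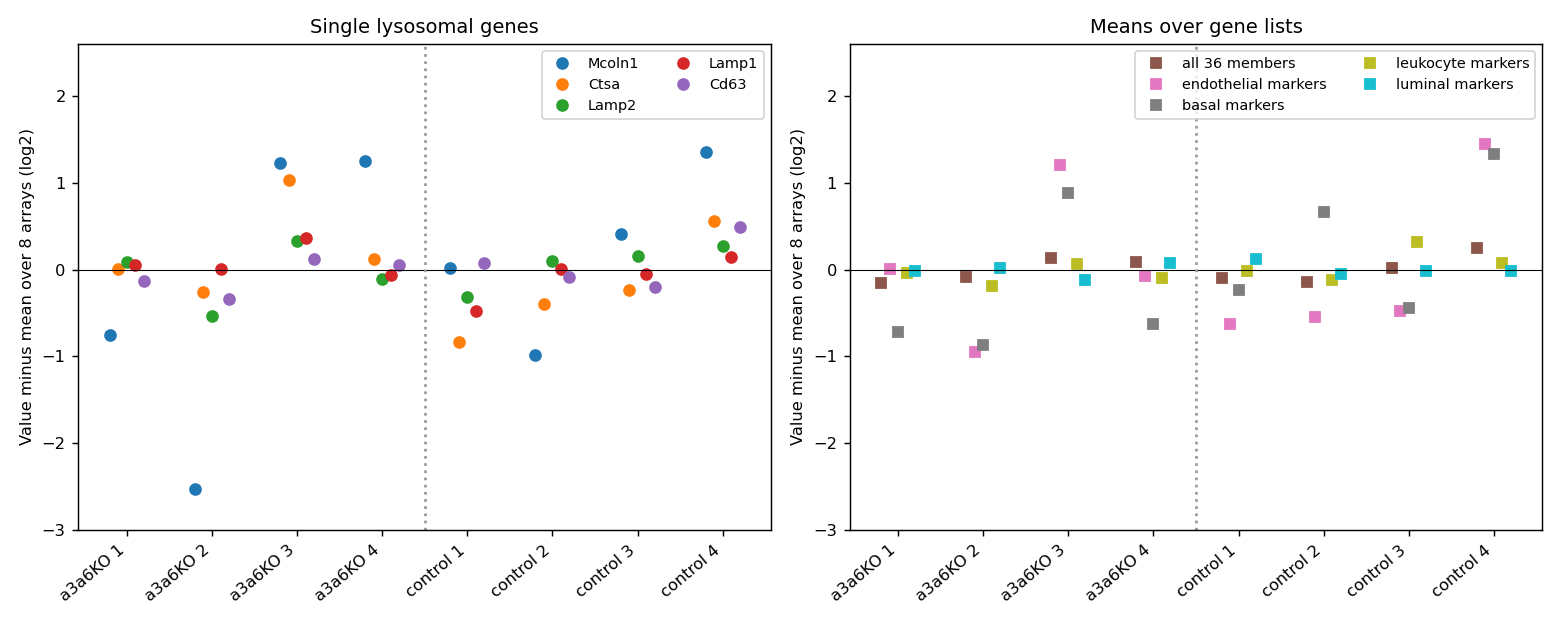
Value minus the mean over the 8 arrays (vertical axis, log2) of 5 lysosomal genes (left panel) and mean of the same quantity over gene lists (right panel), for the a3a6KO arrays left and the control arrays right of the dotted line. The endothelial markers are highest in control 4 (1.45) and a3a6KO 3 (1.20), where Ctsa, Lamp1, Lamp2 and Cd63 also have the highest value of their group, and Mcoln1 is lowest in a3a6KO 2. Ctsa, Lamp1, Lamp2 and Cd63 are the genes of the set with this pattern, so the left panel is no test of it. The pattern held for 11.1% of the set, beside 7.43% of all genes.

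Other genes of the lysosome were taken from lists made from textbook knowledge, together with 5 cystatins, which inhibit cathepsins. The lists, together called the other lysosomal genes, held 85 genes, of which 78 were measured. Of these, 30 were higher and 48 lower in a3a6KO, with a median difference of -0.10 beside -0.0025 over all genes, and 0 passed the threshold. The median was -0.06 without control 3. An unadjusted p under 0.05 was found in 2 of the 78 genes (2.56%, beside 5.13% of all genes), and 50 of the 78 (64.1%, beside 76.4%) exceeded background on no array. Among 32 further hydrolases and their helpers, 21 were lower. Gnptab, the phosphotransferase that starts the mannose 6-phosphate tag of lysosomal enzymes, was at 5.75 ± 0.57 in a3a6KO and 6.44 ± 0.21 in control (SD, n = 4 each), a difference of -0.69. The sulfatase activator gene Sumf1 was at -1.03 (-0.56 without control 1) and the aspartic protease gene Ctse at 0.63, and these 3 genes were below background throughout.

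Membrane proteins and sorting receptors outside the set were even, with 11 of 23 higher and 12 lower. The receptor gene Igf2r, which carries mannose 6-phosphate tagged enzymes to endosomes, was at 6.63 ± 0.66 in a3a6KO and 5.75 ± 0.44 in control (SD, n = 4 each), a difference of 0.88 (SE 0.345) with an adjusted p of 0.944 in limma. It exceeded background on 2 a3a6KO arrays and 0 control arrays. Mcoln3 was at -0.26 (-0.15 without a3a6KO 4) and the transporter gene Abca2 at -0.30 (-0.18 without a3a6KO 3), each below background throughout. Of 18 further proton pump subunits, 12 were lower, with a median of -0.18 and 0 past the threshold. Atp6v0e, above background on all arrays, was at 7.29 ± 0.41 in a3a6KO and 7.77 ± 0.24 in control (SD, n = 4 each), a difference of -0.47 (SE 0.235). Atp6v1g1 was at -0.42, with -0.25 without a3a6KO 1 and -0.64 without a3a6KO 3. Atp6v0d2, below background throughout, was at -0.44, with -0.13 without a3a6KO 4. Of 5 cystatins, the inhibitors of cysteine cathepsins, 3 were lower, with Csta1 at -1.37, Cst6 at -0.49 and Cst3 at -0.39, and 0 passed the threshold. Without control 2, Csta1 was at -0.49 and Cst6 at -0.12, and Csta1 exceeded background on 1 array and Cst6 on no array. The difference of Cst3 ran from -0.65 without a3a6KO 4 to -0.13 without a3a6KO 2.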

How the data were processed

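Per the labels' protocols, cDNA was amplified and biotin-labelled from 500 pg of total RNA per sample. The deposited values are log2 signals, 1 per probe set and array, made by the authors with Affymetrix Expression Console and RMA per the submitters' processing notes, with no versions stated. Because RMA brings every array to 1 distribution, a change common to most genes would not be seen. No genome build is given for the probe sets in the sources used here.

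Of 28846 probe sets, 19572 carried 1 gene symbol in GEO's platform annotation. Where several shared a symbol, the set of the highest mean over the 8 arrays was kept, leaving 19505 genes. A linear model with a group term was fitted to all genes and arrays with limma (version 3.58.1, R version 4.3.3, two-sided moderated tests), with Benjamini-Hochberg adjustment over all of them and a threshold of 0.05. It was also run on simulated data with seeded changes larger than any difference in the set. That run does not bear on differences of the size seen here. For the 14 genes given with values in every array by rule, an exact permutation test over 70 assignments was run, two-sided. Background was the 95th percentile of 5222 negative control sets of the same array. Outside the set, up to 3 genes of lowest p were named from each other lysosomal list, besides Itga3, Itga6 and preset defining markers (Krt8, Krt14, Krt5, Ptprc, Csf1r and Lyz2). Trp63, Muc1, Elf5, Mrc1, Cd14 and Lcp1 were added after their values were seen. Values in full were given for the 2 genes of lowest p in each role, any gene whose groups did not overlap, and Ctsb, Ctsl, Lamp1, Lamp2 and Tfeb. The genes and lists were chosen with earlier results of these data known. Promoter sequences are RefSeq's (GRCm38.p6), matched by symbol. The alternatives tried were arrays left out, a replicate block, another variance prior, a filter on dim genes, centred arrays and the mean of probe sets. The number of arrays limits the precision.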

Additional observations from a re-analysis of the deposited data

Results flagged for a closer look

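In 4 cases a value stood far from the other arrays of their group, the gap to the nearest, as a share of the group's range, being over Dixon's 95% critical value, among 76 groups of 4 examined. Chance gives about 1 such group in 20. In a3a6KO 2, Tpp1 was 7.36 beside 6.60 to 6.71 in the other a3a6KO arrays, Gm2a 8.82 beside 8.53 to 8.56, and Tfeb 5.25 beside 5.07 to 5.09. In control 4, Gusb was 6.56 beside 4.64 to 4.79 in the other controls. Without a3a6KO 2, the groups of Tpp1, Gm2a and Tfeb no longer overlapped, with all a3a6KO values lower. These genes were picked by the value that was then left out, so the separation follows from the choice. With Atp6v1a, 4 of the 36 genes had groups that did not overlap in this setting, beside 5.93% of all genes. Tfeb was below background on all arrays.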

How the results depend on the processing

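The counts of genes past the threshold (0 over all genes and 0 of the 36) were 0 under every alternative run: each array left out in turn, control 4 and a3a6KO 3 left out together, the replicate number as a block, an intensity trend with a robust prior, dim genes left out, arrays centred on their medians, and the mean of a gene's probe sets. Same-numbered arrays did not pair (correlations of their deviations from the group means of 0.03, 0.04, -0.05 and -0.06, and 1 of 4 a3a6KO arrays correlating best with its own number). With the replicate block 0 genes were called, and the median difference of the set stayed 0, as it must in a balanced design. That median ran from -0.07 to 0.06 with 1 array left out, and that of the other lysosomal genes from -0.14 to -0.06. Between 17 and 22 of the 36 genes were lower in a3a6KO with 1 array left out. With genes above background on fewer than 4 arrays left out, 10 of 15 remaining genes were lower, with a median of -0.11. Groups did not overlap in 1 to 4 genes with 1 array left out (5.47% to 6.1% of all genes), in 3 without control 4 and a3a6KO 3, and in 0 with centred arrays (3.03% of all genes), where the near pair of Atp6v1a changed order. Directions of small differences turned in 5 genes without control 4 and a3a6KO 3 (Ctsc 0.01, Ctsh -0.15, Gusb 0.54, Asah1 -0.04 and Atp6v1h -0.077) and in Gusb with centred arrays (0.025). With 1 array left out, directions turned in 16 genes, whose differences ranged as follows: Ctsc from -0.46 to 0.16, Ctsh from -0.18 to 0.22, Ctsl from -0.24 to 0.02, Ctss from -0.18 to 0.22, Lgmn from -0.10 to 0.46, Gaa from -0.083 to 0.86, Gusb from -0.18 to 0.46, Manba from -0.32 to 0.29, Neu1 from -0.28 to 0.0033, Asah1 from -0.038 to 0.16, Lipa from -0.15 to 0.031, Lamp2 from -0.24 to 0.048, Mcoln1 from -0.89 to 0.37, Atp6v0d1 from -0.27 to 0.18, Atp6v1b2 from -0.15 to 0.42, and Atp6ap1 from -0.23 to 0.32. Apart from the loss of arrays or genes, the cause was not tested. Genes near background limit what can be seen here.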
